A study of Mus musculus with 19 samples.

Results

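Translation initiation factors were followed in B16-F10 cells, a mouse melanoma line, with and without a knockout of Mettl5. The set held 44 genes out of 55359 in the count tables, taken by name and sorted by complex: 3 of eIF2, 5 of eIF2B, 13 of eIF3, 12 of the eIF4 group with poly(A)-binding protein, and 11 others. METTL5 is a methyltransferase of an adenosine in the small subunit's ribosomal RNA, and the stated purpose of the profiling was to find mRNAs whose translation depends on it. The groups were scrambled control cells (SCR) and Mettl5 KO cells, both grown in culture without any other treatment named in the labels. Each was measured by input RNA sequencing and by ribosome profiling, in which the fragments of mRNA protected by ribosomes (footprints) are sequenced, with 2 libraries per group and assay; these 8 of the 19 samples in the series are used here. For footprints, cells were held in cycloheximide (100 µg/ml, 8 min) and lysates digested with nuclease (40 min, 22 C).

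The labels do not say whether the knockout cells were 1 clone, nor that the replicates were grown apart, so every p-value measures only the spread between these libraries. Count columns named POOL were read as KO by elimination, because the remaining columns are named SCR. Library totals were 38968000 to 48692578 counts in input RNA. In footprints they were 28059683 and 31301806 in SCR but 14555963 and 21366608 in KO, so depth moved with genotype; its part in the footprint results was not tested. Members had 770 to 81022 counts per library in RNA and 298 to 23480 in footprints, and all 44 passed the filter on low counts in both assays. Mettl5 itself was at 9.23 and 9.41 CPM (counts scaled to a common library size) in SCR input RNA and at 6.46 and 6.21 in KO. That is a log2 fold change of -0.56 (SE 0.13, edgeR adjusted p = 0.0284), and the call was lost without SCR library 1 (adjusted p = 0.1225), SCR library 2 (0.1157) or KO library 1 (0.05455). Its footprints were at 15.1 and 13.8 CPM in SCR and 11.05 and 11.6 in KO (-0.35, SE 0.09, edgeR adjusted p = 0.112). The melanocyte markers Mlana, Dct, Tyr, Tyrp1, Pmel, Mitf and Sox10 were all between 278 and 4652 CPM in RNA. Of 6 blood markers 4 had no count in any RNA library and the highest stood at 0.864 CPM; of 6 fibroblast and endothelial markers 3 had none and the highest, Pdgfrb, reached 10.0 CPM. In bulk libraries a change in the mix of cells and a change of RNA per cell cannot be told apart.

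As background, initiation starts when eIF2, loaded with GTP and the initiator tRNA, joins the small ribosomal subunit together with eIF3, eIF1, eIF1A and eIF5. The eIF4 group recognises the cap of the mRNA, unwinds its leader and brings the subunit to it, and the loaded subunit then scans to a start codon. After start codon recognition eIF2 leaves with GDP, and eIF2B recharges it; this exchange and the cap-binding step are the best known points of control, through phosphorylation of eIF2 and through the 4E-binding proteins that answer to mTOR. Many mRNAs for the translation machinery begin with a run of pyrimidines (C or T) at the very first transcribed base, a terminal oligopyrimidine start, through which LARP1 and mTOR act on them.

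The annotated starts of the members were read for that feature, because several of them moved together in RNA. RefSeq promoter windows (GRCm38.p6, a build other than that of the count files) matched 36 members; Eif4ebp1, Pabpc1, Eif2b3, Eif4g2, Eif3i, Eif3h, Eif6 and Eif3e had no entry. The motif searched was C or T at the annotated start followed by at least 4 more C or T, on the transcribed strand only. It was present in 2 of the 36 members (5.56%), against 5.28% of the 27025 genes in the table. The 2 members are Eif2s3x (chrX:94212632-94212661, minus strand) and Eif3f (chr7:108934405-108934434, plus strand), shown with 10 bases before and 20 from the start, and with the run of 11 pyrimidines in capitals. Beside them stand the starts of 3 members with the largest rises in RNA, in which only the first transcribed base is in capitals: Eif3b (chr5:140419295-140419324, plus strand), Eif4h (chr5:134639390-134639419, minus strand) and Eif2b4 (chr5:31193120-31193149, minus strand).
Eif2s3x: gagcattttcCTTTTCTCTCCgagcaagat
Eif3f: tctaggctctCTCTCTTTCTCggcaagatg
Eif3b: ggcgcgcggtGacttctgggagtcggaagc
Eif4h: acttgcgatcAggcagcgcggcggacagcc
Eif2b4: cccagtgcacGccggaagttgtagtccgct
A pyrimidine run in these letters is a description of an annotated start, and starts a few bases away would read differently. Eif3f rose in RNA and Eif2s3x did not pass the test. Eif3b, Eif4h and Eif2b4 have a purine at the annotated start, but they were picked for their rises in RNA. Members without an entry, Pabpc1, Eif3e and Eif3h among them, could not be read. A link between these starts and the RNA changes was therefore not tested.

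Input RNA of the initiation factors was higher in KO cells as a group. With edgeR's quasi-likelihood test and Benjamini-Hochberg adjustment over all 20025 genes tested, 18 of the 44 members rose (40.9%) and none fell; 29 had an unadjusted p under 0.05. Over all genes tested 9.56% were called higher, 7.21% lower and 16.8% in either direction, and among the genes at or above the level of the lowest member 18.5% were called higher and 10.8% lower. The members' log2 fold changes ran from -0.10 to 0.48 with a median of 0.18. The median was -0.01 over all genes and 0.04 over genes at or above the level of the lowest member. Both KO libraries lay above both SCR libraries for 34 members and below them for 2, where 31% of all genes tested were separated in each direction. With library totals alone as scaling, chosen after seeing the data, 11 members rose and their median lay 0.18 above that of all genes, as in the TMM-scaled fit (0.18); over all genes the calls were then 1449 higher and 2240 lower, in place of 1915 and 1443. Without a filter on low counts, 6 of the 18 stayed called (Eif2b1, Eif2b4, Eif3b, Eif4a1, Eif4ebp1, Eif4h). The number of members called also rested on the SCR libraries: 4 of the 18 stayed called without SCR library 1 (Eif2b4, Eif3b, Eif4ebp1, Eif4h) and 5 without SCR library 2 (Eif3b, Eif3g, Eif4a1, Eif4ebp1, Eif4h).

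Ribosome footprints on the same mRNAs gave no call in the TMM-scaled fit. No member passed the test in edgeR among 16878 genes, of which 0.51% were called higher, 1.78% lower and 2.29% in either direction; at or above the lowest member's level the shares were 0.738% and 3.52%. DESeq2 also called 0, and 14 members had an unadjusted p under 0.05 in edgeR. The members' footprint log2 changes ran from -0.28 to 0.31 with a median of 0.11, against 0.01 over all genes. Both KO libraries were above both SCR libraries for 26 members and below them for 6, where 29.4% and 28.2% of all genes were. Of the 18 members that rose in RNA, 13 had a footprint change above 0 and 5 below it; since these 18 were picked by their RNA change, nothing is read from a comparison of its size with that in footprints. With library totals alone the median of all genes moved up by over 0.1, to 0.12, and Eif3f (adjusted p = 0.04597) and Denr (0.04948) passed the edgeR test as higher; the members' median was then 0.22 in footprints and 0.11 in RNA, the reverse of the order with TMM, and in footprints it lay 0.10 above that of all genes, as it did with TMM.

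**Figure D1:**
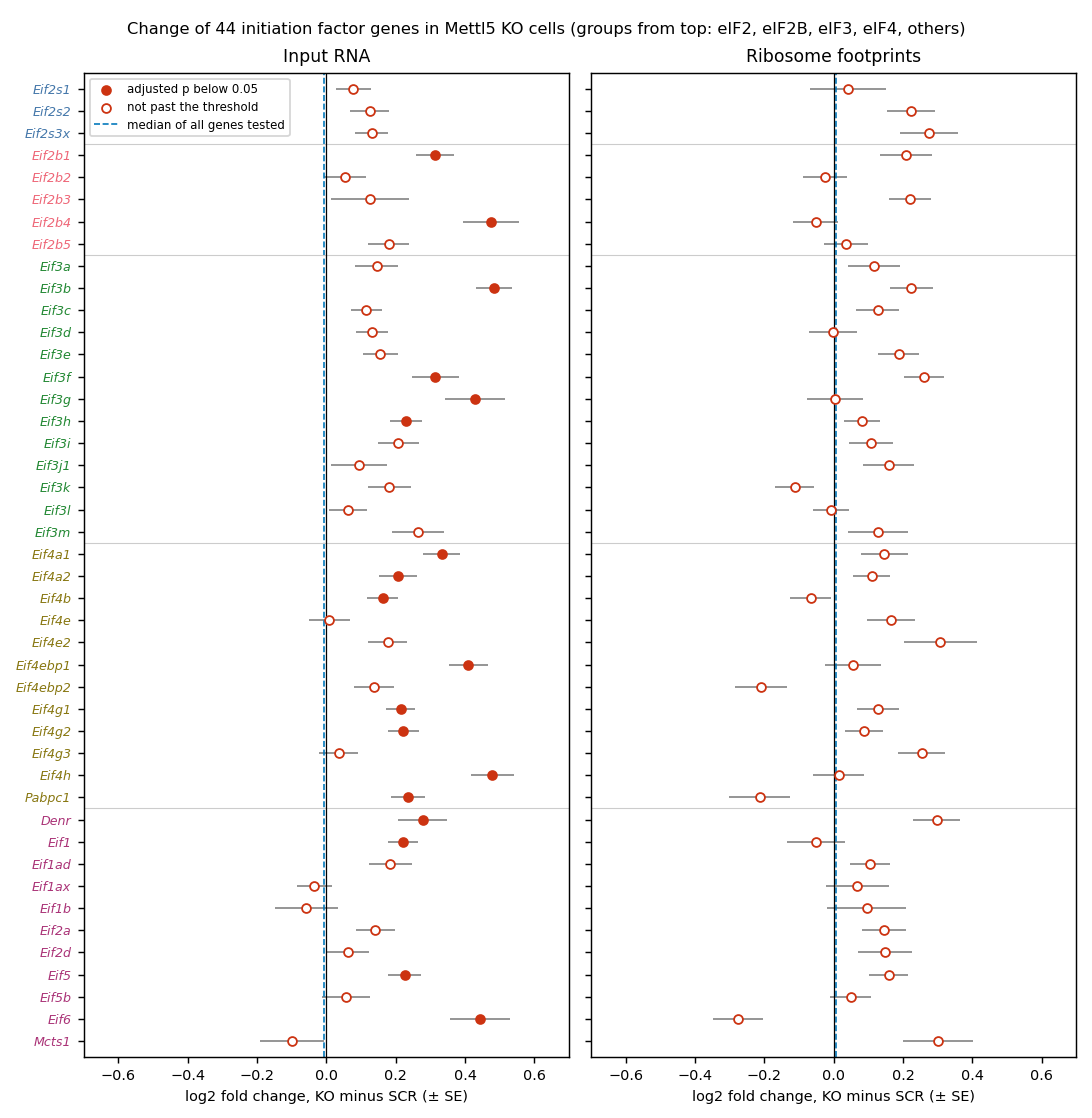
Log2 fold change (KO minus SCR, points, with SE as bars) of the 44 initiation factor genes in input RNA (left) and ribosome footprints (right), n = 2 libraries per group. Filled points passed the edgeR test; the dashed line is the median of all genes. In RNA 41 of 44 points lie right of 0, in footprints 34.

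Footprints over RNA, the translational efficiency, was tested by an interaction term (genotype by assay) in 1 fit to the 8 libraries, the same libraries that the 2 comparisons above used. Among 23211 genes 0.788% were called higher, 3.4% lower and 4.19% in either direction, and at or above the lowest member's level 1.3% and 8.22%. Of the 44 members none rose and 2 fell, Eif6 and Eif2b4. The members' median was -0.12, against -0.05 over all genes and -0.10 over genes at or above the level of the lowest member; 28 members lay below the median of all genes and 16 above it. With library totals alone the median of all genes moved to 0.15 and that of the members to 0.10, so the sign of the members' median turned, while 27 members still lay below the median of all genes. The split of calls over all genes turned with it, from 183 higher and 790 lower to 1011 higher and 305 lower. Relative to all genes the eIF4 group was lowest (median 0.15 lower, 9 of 12 members below), eIF2B and eIF3 came next (0.09 and 0.08 lower), and eIF2 lay 0.11 higher with 2 of its 3 subunits above. Genes at or above the level of the lowest member, a set without an upper bound on level, had a median of -0.10. Beside it the medians were -0.20 in the eIF4 group, -0.14 in eIF2B, -0.14 in eIF3, -0.04 in the others and 0.06 in eIF2. The medians of the eIF4 group, eIF2B and eIF3 thus lay below both references, and those of the others and eIF2 above both. These differences between complexes were not tested.

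**Figure D2:**
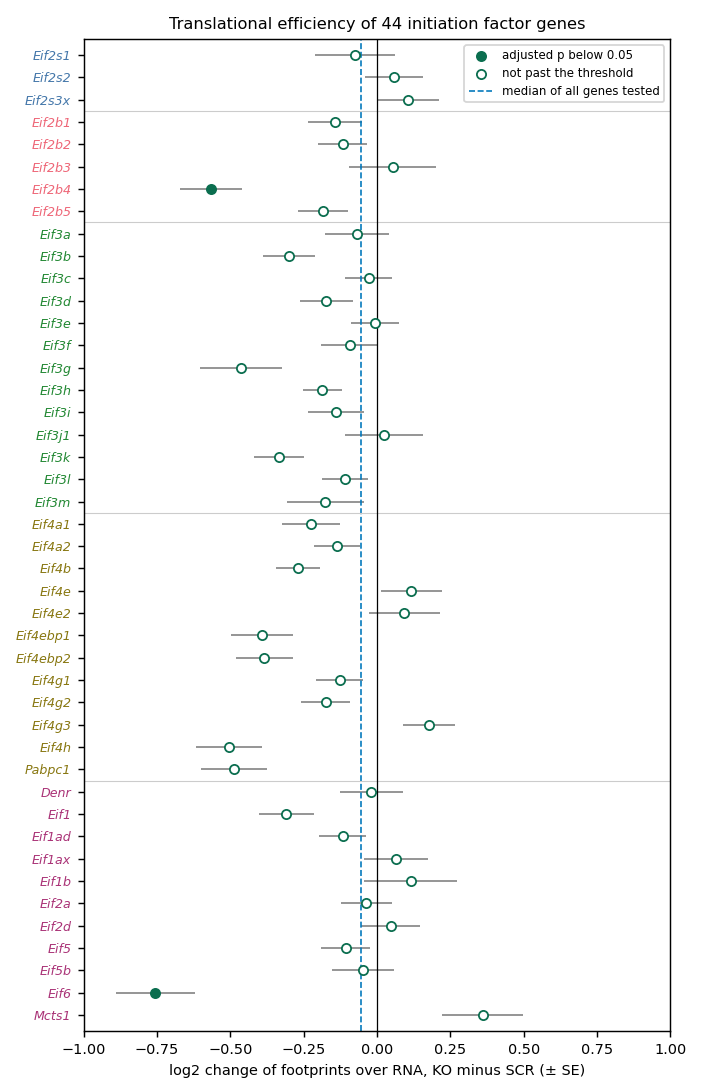
Log2 change of footprints over RNA (KO minus SCR, points, with SE as bars) for the 44 genes in the same order, from the interaction term fitted to 8 libraries. Eif6 and Eif2b4 (filled) passed the edgeR test; the dashed line marks the median of all genes, -0.05, and 28 members lie left of it.

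eIF2, the carrier of initiator tRNA, was the complex with the smallest change in RNA. None of its 3 subunits passed the test there with all libraries, and their log2 changes were 0.08 to 0.13; without KO library 1, Eif2s3x passed (0.16, edgeR adjusted p = 0.04895). Eif2s3x, the GTP-binding gamma subunit, had 256 and 259.8 CPM in SCR RNA and 276 and 288 in KO (0.13, SE 0.05, edgeR adjusted p = 0.104). In footprints it stood at 101 and 103 CPM in SCR and at 115 and 132 in KO (0.27, SE 0.08, edgeR adjusted p = 0.14). Both assays were thus higher in both KO libraries, without passing the test. Eif2s2, the beta subunit, showed the same order, with 129.8 and 141 CPM in SCR RNA against 145 and 150.0 in KO (0.12, SE 0.06, edgeR adjusted p = 0.186). In footprints it had 119 and 129 CPM in SCR and at 149 and 141 in KO (0.22, SE 0.07, edgeR adjusted p = 0.144). Eif2s1, the alpha subunit whose phosphorylation blocks eIF2B, had overlapping footprints, at 107 and 114 CPM in SCR and 102 and 125 in KO. Footprints over RNA differed by 0.11 (SE 0.11, edgeR adjusted p = 0.673) for Eif2s3x and by 0.06 (SE 0.10, edgeR adjusted p = 0.878) for Eif2s2. The Y-linked copy Eif2s3y had no count in any RNA library.

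In eIF2B, the exchange factor that recharges eIF2, 2 of 5 subunits rose in RNA. That is 40%, against 9.56% of all genes and 18.5% of those at or above the lowest member's level. Eif2b4, the delta subunit (coding ORF on chromosome 5, 31344948 to 31350367, GRCm39, 13 exons), had 29.5 and 27.1 CPM in SCR RNA and 41.3 and 37.3 in KO (0.47, SE 0.08, edgeR adjusted p = 0.0113). Its footprints overlapped, at 32.2 and 30.2 CPM in SCR and 29.9 and 30.2 in KO (-0.05, SE 0.07, edgeR adjusted p = 0.673). In the interaction fit, footprints over RNA of Eif2b4 fell by 0.57 (SE 0.11, edgeR adjusted p = 0.0361). Eif2b1, the alpha subunit through which eIF2B senses phosphorylated eIF2, rose from 80.2 and 76.5 CPM in SCR RNA to 97.5 and 97.2 in KO (0.31, SE 0.05, edgeR adjusted p = 0.0116). Its footprints were also higher in both KO libraries, at 52.5 and 58.1 CPM against 49.1 and 46.7 (0.21, SE 0.07, edgeR adjusted p = 0.181). Eif2b3, the gamma subunit, overlapped in RNA (22.6 and 25.8 CPM in SCR, 24.1 and 28.7 in KO) and was separated in footprints, at 30.1 and 29.5 against 35.3 and 34.1 CPM (0.22, SE 0.06, edgeR adjusted p = 0.122). With all libraries Eif2b2 and the catalytic Eif2b5 did not pass any of the edgeR tests; without KO library 2, Eif2b5 passed in RNA (0.25, adjusted p = 0.01788). The RNA calls were lost for Eif2b1 without SCR library 1 and for both genes without SCR library 2, where Eif2b4 had an adjusted p of 0.05381. The Eif2b4 call on footprints over RNA was lost in edgeR without RNA library SCR 1 (adjusted p = 0.1158), SCR 2 (0.135) or KO 1 (0.1252), without footprint library SCR 1 (0.06605) or KO 1 (0.06394), and with library totals alone (0.1111).

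eIF3, the scaffold of many subunits that keeps the small subunit open for initiation, had 4 of 13 subunits called in RNA, all higher. That is 30.8%, against 9.56% of all genes and 18.5% of those at or above the lowest member's level. All 13 subunits had a positive RNA log2 change (12 of 13 with library totals alone or without SCR library 1), where the median of all genes was -0.01. For 11 of them both KO libraries lay above both SCR libraries, as they did for 31% of all genes tested. Eif3b, which holds together the part of eIF3 near the mRNA entry, had 477 and 482 CPM in SCR and 695 and 646 in KO (0.48, SE 0.05, edgeR adjusted p = 0.00328), the smallest p of any member. Eif3g, an RNA-binding subunit, had 65.8 and 71.0 CPM in SCR and 99.5 and 84.6 in KO (0.43, SE 0.09, edgeR adjusted p = 0.0178). Eif3f rose from 175 and 166 CPM to 224 and 199.6 (0.31, SE 0.07, edgeR adjusted p = 0.0215) and Eif3h, its partner of the same protein fold, from 159.7 and 160.3 to 190.1 and 185 (0.23, SE 0.05, edgeR adjusted p = 0.0193). The SCR and KO libraries of these 4 genes did not overlap. Eif3i (adjusted p = 0.0531) and Eif3m (0.052) lay just outside the threshold in edgeR, and DESeq2 called both; without KO library 2 both passed in edgeR (0.01821 and 0.004561), as did Eif3k (0.03182). Without SCR library 1 only Eif3b among the 4 stayed called, and without SCR library 2 Eif3b and Eif3g.

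The footprint changes of eIF3 subunits were mixed in sign, with 10 above 0 and 3 below, and ran from -0.11 to 0.26. Eif3f had 117 and 122 CPM in SCR and 139.9 and 146 in KO (0.26, SE 0.06, edgeR adjusted p = 0.0885), the lowest adjusted p of any member in this assay. Eif3b had 294 and 300.4 in SCR and 338 and 357 in KO (0.22, SE 0.06, edgeR adjusted p = 0.121), so its footprints were higher in both KO libraries. Eif3g overlapped, at 196 and 206 CPM in SCR and 189 and 214 in KO. Eif3k, a small peripheral subunit, was the only eIF3 subunit besides Eif3l whose KO footprint libraries both lay below the SCR ones, at 179.7 and 189 CPM against 197 and 201 (-0.11, SE 0.06, edgeR adjusted p = 0.294). Its RNA stood at 62.9 and 63.3 CPM in SCR and at 74.8 and 68.3 in KO. Footprints over RNA differed by -0.33 for Eif3k (SE 0.09, edgeR adjusted p = 0.0759) and by -0.30 for Eif3b (SE 0.09, edgeR adjusted p = 0.109), and no eIF3 subunit passed that test in edgeR with all libraries; without footprint library KO 2, Eif3b (adjusted p = 0.04987) and Eif3k (0.04678) did. DESeq2 called Eif3b, Eif3g and Eif3k lower. Eif3j1, a loosely bound subunit, shares sequence with the copy Eif3j2, and reads of the pair could be split between them, so its values are uncertain.

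In the eIF4 group 8 of 12 members were called in RNA, all higher. That is 66.7%, against 9.56% of all genes and 18.5% of those at or above the lowest member's level. Without a filter on low counts 3 of these 8 stayed called, and with library totals alone 4. Eif4h, which with Eif4b stimulates the helicase eIF4A (coding ORF on chromosome 5, 134650366 to 134668153, GRCm39, 7 exons), had 399 and 386 CPM in SCR and 579 and 515 in KO (0.48, SE 0.06, edgeR adjusted p = 0.00577). Eif4ebp1, a repressor that keeps eIF4E from its scaffold when mTOR is low, had 62.0 and 58.8 CPM in SCR and 80.3 and 80.0 in KO (0.41, SE 0.06, edgeR adjusted p = 0.0064). Eif4a1, the main helicase, had 500.2 and 513 CPM in SCR and 664 and 611 in KO (0.33, SE 0.05, edgeR adjusted p = 0.00985). The scaffold Eif4g1 had 1117 and 1134 CPM in SCR and 1299 and 1312 in KO (0.21, SE 0.04, edgeR adjusted p = 0.017). Rises were thus seen in a helicase, its cofactor, the scaffold and a repressor alike. Eif4g2, Pabpc1, Eif4a2 and Eif4b also rose, by 0.16 to 0.23. Without SCR library 1 the calls on Eif4h and Eif4ebp1 remained, and without SCR library 2 those and Eif4a1. Pabpc1 is among those lost (adjusted p = 0.1872 and 0.1194 in edgeR), and without KO library 1 Eif4a2 and Eif4b were lost.

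The cap-binding protein Eif4e, the component that the repressors bind, was the member of this group with the smallest RNA change. It had 131 and 142 CPM in SCR RNA and 134 and 141 in KO (0.01, SE 0.06, edgeR adjusted p = 0.941). Footprints on Eif4e were at 62.8 and 68.9 CPM in SCR and 73.1 and 74.5 in KO (0.17, SE 0.07, edgeR adjusted p = 0.228). Eif4e2, a cap-binding relative that acts as a repressor, had 73.1 and 72.7 CPM in SCR RNA and 84.8 and 80.0 in KO, and 33.9 and 28.8 against 36.9 and 40.6 in footprints (0.31, SE 0.11, edgeR adjusted p = 0.168). Neither cap-binding gene passed a test in edgeR with all libraries; Eif4e2 passed in RNA without KO library 2 (0.22, adjusted p = 0.04002). The 3 scaffolds differed in the same way: Eif4g3 overlapped in RNA, at 135 and 138 CPM in SCR and 135 and 145 in KO (0.03, SE 0.06, edgeR adjusted p = 0.705), whereas Eif4g1 and Eif4g2 rose. Eif4g3 footprints were at 47.8 and 49.7 CPM in SCR and 60.4 and 55.9 in KO (0.25, SE 0.07, edgeR adjusted p = 0.114). Eif4g2, a scaffold that lacks the eIF4E binding site, had 1194 and 1233 CPM in SCR RNA and 1432 and 1398 in KO (0.22, SE 0.04, edgeR adjusted p = 0.0176), with footprints at 131 and 136 against 140.5 and 143 CPM. Whether the paralogs differ from each other in their change was not tested.

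The 4E-binding proteins Eif4ebp1 and Eif4ebp2 were lower in footprints relative to RNA, and so were Eif4h and Pabpc1, none past the test in edgeR. Eif4ebp1 footprints overlapped, at 32.4 and 35.3 CPM in SCR and 33.5 and 36.8 in KO, beside its RNA rise (footprints over RNA -0.39, SE 0.11, edgeR adjusted p = 0.0851). Eif4ebp2 had 367 and 364 CPM in SCR RNA and 423 and 381 in KO, but 36.9 and 33.4 against 29.9 and 30.8 in footprints (footprints over RNA -0.38, SE 0.10, edgeR adjusted p = 0.0712). The RNA of Eif4ebp2 was thus higher and its footprints lower in both KO libraries. Eif4h footprints were at 306 and 308 CPM in SCR and 293 and 327 in KO (footprints over RNA -0.50, SE 0.11, edgeR adjusted p = 0.0523). Pabpc1, the poly(A)-binding protein (coding ORF on chromosome 15, 36596810 to 36608750, GRCm39, 14 exons), had 1499 and 1538 CPM in SCR RNA and 1727 and 1848 in KO (0.23, SE 0.05, edgeR adjusted p = 0.0212). Its footprints were lower in both KO libraries, at 404 and 418 CPM against 510.0 and 444 (-0.21, SE 0.09, edgeR adjusted p = 0.225; footprints over RNA -0.49, SE 0.11, edgeR adjusted p = 0.0574). Leaving out footprint library SCR 2 brought Pabpc1 past the threshold (edgeR adjusted p = 0.03458), and leaving out KO 2 brought Eif4h (0.03369), Eif4ebp1 (0.04353), Eif4b (0.04148) and Eif1 (0.03891); DESeq2 called Eif4h, Pabpc1, Eif4b and Eif4ebp2 lower.

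**Figure D3:**
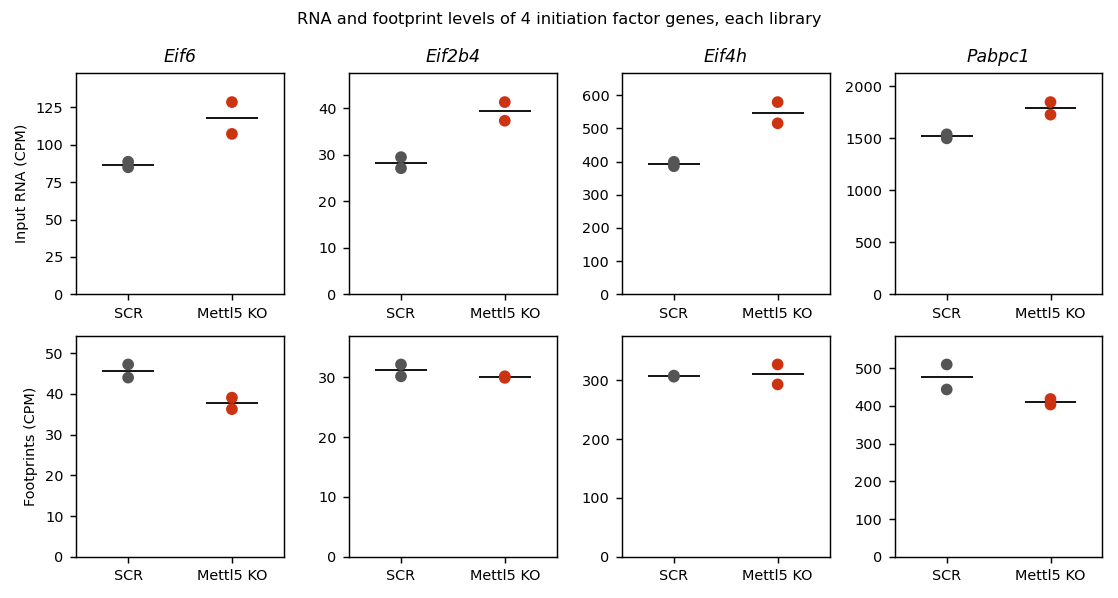
Input RNA (top) and footprints (bottom) of Eif6, Eif2b4, Eif4h and Pabpc1 in TMM-scaled CPM, 1 point per library and a line at the mean of each group of 2. In every panel of the top row both KO points lie above both SCR points, and in the bottom row the KO points of Eif6 and Pabpc1 lie below.

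Among the remaining factors Eif6 showed the widest gap between the assays. It encodes a protein that binds the large ribosomal subunit and keeps it from joining the small subunit too early (coding ORF on chromosome 2, 155662025 to 155668353, GRCm39, 6 exons). Its RNA stood at 88.7 and 85.0 CPM in SCR and 129 and 107 in KO (0.44, SE 0.09, edgeR adjusted p = 0.017). Its footprints were at 43.98 and 47.2 CPM in SCR and 36.2 and 39.1 in KO (-0.28, SE 0.07, edgeR adjusted p = 0.112), so both KO libraries were above SCR in RNA and below it in footprints. Footprints over RNA of Eif6 fell by 0.76 (SE 0.13, edgeR adjusted p = 0.0322), and the fall passed the test also with library totals alone (-0.54, adjusted p = 0.0442). That call was lost without RNA library SCR 1 (adjusted p = 0.1291), SCR 2 (0.1304) or KO 1 (0.1006), and without footprint library SCR 2 (0.0568) or KO 1 (0.0574). Over these edgeR fits the log2 change of Eif6 stayed between -0.54 and -0.91. Its RNA call was lost without SCR library 1 (adjusted p = 0.0508) or SCR library 2 (0.05773).

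Of the factors that govern start codon choice, Eif1 and Eif5 rose in RNA. Eif1, which keeps the scanning subunit from settling on poor start codons, had 294 and 298 CPM in SCR and 347 and 343 in KO (0.22, SE 0.04, edgeR adjusted p = 0.0179). Its footprints overlapped, at 50.02 and 46.2 CPM in SCR and 43.8 and 49.04 in KO. Eif5, the GTPase-activating protein of eIF2 that opposes Eif1 in this choice, had 502 and 527 CPM in SCR RNA and 613 and 591 in KO (0.23, SE 0.05, edgeR adjusted p = 0.0222), and 182 and 191 against 209.6 and 207 in footprints (0.16, SE 0.06, edgeR adjusted p = 0.177). The paralog Eif1b, close in sequence to Eif1, overlapped in both assays, at 26.5 and 29.3 CPM in SCR RNA and 25.3 and 28.3 in KO (-0.06, SE 0.09, edgeR adjusted p = 0.704), and at 21.03 and 17.8 against 19.6 and 21.8 in footprints. Eif1ax, which works with Eif1, had a negative RNA log2 change (-0.04) and Eif5b, the GTPase of subunit joining, one of 0.06.

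Denr and Mcts1 encode the 2 subunits of a dimer that acts in reinitiation and in recycling of the small subunit. Denr rose in RNA, from 34.9 and 36.1 CPM in SCR to 45.2 and 40.9 in KO (0.28, SE 0.07, edgeR adjusted p = 0.0408). Its footprints were at 45.3 and 48.2 CPM in SCR and 55.4 and 59.4 in KO (0.30, SE 0.07, edgeR adjusted p = 0.0924). Mcts1 had 19.3 and 20.4 CPM in SCR RNA and 17.9 and 19.1 in KO (-0.10, SE 0.09, edgeR adjusted p = 0.507), the lowest RNA log2 change of any member. Mcts1 footprints were at 17.7 and 16.8 CPM in SCR and 19.6 and 22.8 in KO (0.30, SE 0.10, edgeR adjusted p = 0.164). The 2 partners were thus both higher in the KO footprint libraries, while their RNA libraries were separated in opposite directions. Eif2d, which fuses both functions in a single protein, and Eif2a did not pass any of the edgeR tests with all libraries. None of the RNA calls on Eif1, Eif5, Eif6 and Denr stayed without SCR library 1 or without SCR library 2, and that on Denr was lost also without KO library 1. None of the 4 stayed without a filter on low counts.

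The authors' deposited table of translational efficiency gives its own ratio, log2 change and adjusted p per gene, without replicate values. In the authors' deposited table, 8.69% of 16872 genes were lower and 2.17% higher in KO at an adjusted p under 0.05, and 4 of the 44 members were lower (Eif6, Eif2b4, Pabpc1 and Eif4h) and none higher. Its log2 changes, per the authors' deposited table, were -0.77 for Eif6 (adjusted p = 0.00261), -0.58 for Eif2b4 (0.00591), -0.50 for Pabpc1 (0.00778) and -0.52 for Eif4h (0.0247). The table was made from the same libraries, so it is no independent measurement.

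Regulators of initiation, from a list of 33 genes, were called in both directions in RNA: 3 rose (9.09%, against 9.56% of all genes) and 6 fell (18.2%, against 7.21%). Among genes at or above the lowest member's level 18.5% were called higher and 10.8% lower. The list was chosen with earlier results of these data known, so these shares are descriptions. Mknk2, a kinase of eIF4E, fell from 437 and 432 CPM in SCR RNA to 266 and 261 in KO (-0.72, SE 0.04, edgeR adjusted p = 0.000459), and its footprints fell from 68.1 and 61.0 to 32.3 and 35.6 (-0.93, SE 0.09, edgeR adjusted p = 0.0311). Pdcd4, an inhibitor of eIF4A, fell in RNA from 11.8 and 12.8 to 6.80 and 6.996 CPM (-0.84, SE 0.12, edgeR adjusted p = 0.00797). Its footprints were at 45.3 and 48.5 CPM in SCR and 36.4 and 43.3 in KO (-0.23, SE 0.10, edgeR adjusted p = 0.24). Footprints over RNA of Pdcd4 differed by 0.57 (SE 0.15, edgeR adjusted p = 0.0773). Akt1s1, an inhibitory subunit of mTOR complex, rose in RNA from 58.8 and 59.3 to 75.7 and 72.4 CPM (0.33, SE 0.06, edgeR adjusted p = 0.0114). Its footprints were at 8.84 and 7.47 CPM in SCR and 5.98 and 5.44 in KO. Ppp1r15b, the constitutive regulator of eIF2 dephosphorylation, rose in RNA from 329.6 and 325 to 432 and 386 CPM (0.32, SE 0.06, edgeR adjusted p = 0.0156), and its footprints were at 226 and 200.1 in SCR and 162 and 151 in KO. Both Akt1s1 and Ppp1r15b thus had higher RNA and lower footprints in KO, as Eif6 did. Footprints over RNA fell by 0.88 for Akt1s1 (SE 0.13, edgeR adjusted p = 0.0212) and by 0.81 for Ppp1r15b (SE 0.11, edgeR adjusted p = 0.0205), the only 2 of the 33 past that edgeR test. These are 6.06% of the list, against 3.4% of all genes called lower and 8.22% of those at or above the lowest member's level. The authors' deposited table also lists Larp1 (-0.33, authors' adjusted p = 0.0142) and Eif2ak3 (-0.40, 0.0164) as lower. It lists Eif2ak2 as higher (0.47, authors' adjusted p = 0.0444). Ddit4, an mTOR inhibitor induced by stress, had 29.1 and 23.8 footprint CPM in SCR and 14.7 and 15.1 in KO (-0.83, SE 0.12, edgeR adjusted p = 0.0494). Mknk2 and Ddit4 were the 2 of 32 regulators tested in footprints that were called lower (6.25%). The share was 1.78% over all genes and 3.52% at or above the lowest member's level. Neither footprint call stayed when any of the 4 footprint libraries was left out (adjusted p = 0.07208 to 0.1499), and the calls on footprints over RNA were lost without RNA library SCR 1, SCR 2 or KO 1 (0.08954 to 0.1081). The RNA calls on Akt1s1 and Ppp1r15b were lost without SCR library 1 or 2 (0.05788 to 0.07737).

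Levels within a complex were compared as footprint density, the TMM-scaled footprint CPM per 100 codons of the longest annotated coding ORF in the authors' ORF list. In a complex of fixed composition similar densities are a usual pattern, and 12 eIF3 subunits (all but Eif3j1) spanned 3.03-fold to 3.88-fold from lowest to highest in the 4 libraries. Their median was 35.7 and 36.6 in SCR and 39.8 and 41.9 in KO. Above the others stood Eif3k (90.3 and 92.4 in SCR, 82.4 and 86.5 in KO), then Eif3g (61.2 and 64.3, then 59.1 and 66.8) and Eif3a (56.0 and 58.2, then 64.0 and 59.9). Eif3d and Eif3m were the lowest of the 12, at 27.5 to 29.9 and 23.3 to 27.7. Eif3j1 was apart from all of them, at 11.9 and 13.1 in SCR and 13.8 and 14.0 in KO. Reads could be split between Eif3j1 and its copy Eif3j2, so this density is uncertain. Eif3j1 had 31.02 and 34.1 footprint CPM in SCR and 36.03 and 36.6 in KO. Eif3j2 had nearly as many, with 27.6 and 31.1 in SCR and 33.4 and 33.996 in KO. The part of split reads in the low density of Eif3j1 was not tested. Without the correction for length the 12 subunits spanned 8.16-fold, as a mean of the 4 libraries, in place of 3.36-fold.

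eIF2 was denser in footprints than its exchange factor in every library. The median eIF2 subunit exceeded the median eIF2B subunit 4.44-fold and 4.79-fold in SCR and 4.16-fold and 5.23-fold in KO. Within eIF2, Eif2s3x was lowest (21.5 to 28.03), below Eif2s1 (32.5 to 39.6) and Eif2s2 (35.9 to 44.9). Within eIF2B, Eif2b1 was highest, at 16.1 and 15.3 in SCR and 17.2 and 19.1 in KO, and the other 4 subunits lay between 5.71 and 8.55, with Eif2b4 lowest in each library.

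Densities in the eIF4 group ranged far more widely, from Eif4g3 (3.03 to 3.83) to Eif4h (118 to 132). The helicase Eif4a1 stood at 79.5 and 82.5 in SCR and 86.1 and 93.0 in KO, which was 2.35-fold to 2.59-fold that of its paralog Eif4a2. Eif4e and Eif4g1, the cap-binding protein and its scaffold, were at nearly the same density, with a ratio of 0.956 to 1.05. The 2 repressors Eif4ebp1 and Eif4ebp2 together had 2.02-fold and 1.83-fold the density of Eif4e in SCR and 1.59-fold and 1.66-fold in KO. The SCR and KO values of that ratio did not overlap, and the difference was not tested. With 2 libraries per group such separation is common. In footprints 29.4% of all genes had both KO libraries above both SCR libraries and 28.2% below. The ratios of Eif1 to Eif1b and of Eif4g1 to Eif4g3 were separated as well. Eif4g1 exceeded Eif4g2 by 1.57-fold to 1.68-fold and Eif4g3 by 8.81-fold to 10.0-fold, Eif4e exceeded Eif4e2 by 2.07-fold to 2.704-fold, and Eif1 exceeded Eif1b by 2.23-fold to 2.59-fold. In the last group, Eif5 (44.2 to 50.9), Eif1 (38.8 to 44.3) and Eif1ax (37.1 to 43.2) were the densest and Eif2d the least dense (3.77 to 4.44). Density counts footprints over a whole gene, including those outside the coding ORF, and where 2 neighbours in an order lie within each other's library range no order is claimed.

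**Figure D4:**
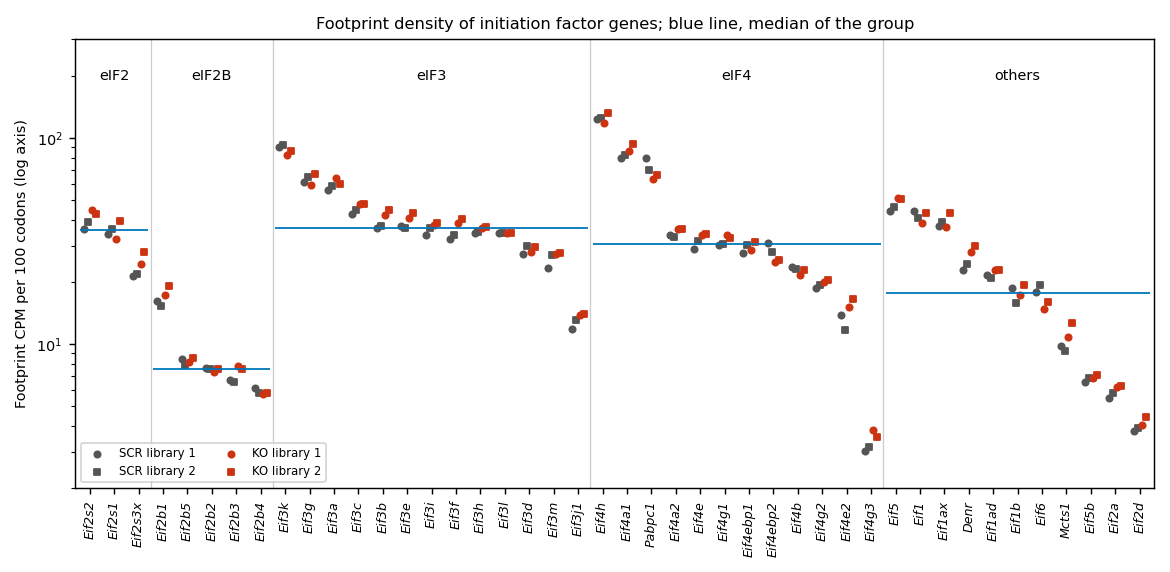
Footprint CPM per 100 codons (log axis) for the 44 genes, by complex and in falling order within it, 1 point per library; the blue line is the median of the group. The eIF3 subunits other than Eif3j1 lie within 3.88-fold of each other, eIF2B lies below eIF2, and Eif4h and Eif4g3 mark the ends of the eIF4 group.

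Footprints relative to RNA also differed between members within SCR cells. The ratio of mean footprint CPM to mean RNA CPM, both TMM-scaled within their assay, had a median of 0.67 over the 44 members in SCR and 0.622 in KO, not corrected for the share of each mRNA that lies outside the coding region. It was above 1 for 8 members in SCR: Eif3k (3.16), Eif3g (2.94), Eif3a (2.05), Denr (1.32), Eif3c (1.29), Eif2b3 (1.23), Eif2b4 (1.102) and Eif3m (1.01). The lowest were Eif4ebp2 (0.0961), Eif4g2 (0.11) and Eif1 (0.163). Of the 8, Eif2b4 (0.765) and Eif3m (0.92) were below 1 in KO, and the test of this change is the interaction fit above, in which Eif3m did not pass the threshold.

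The authors' list of open reading frames places 48 ORFs other than the coding one on 25 of the 44 genes. Upstream ORFs, which ribosomes can translate before the coding ORF and which can limit its use, were listed on 15 members (34.1%), against 30.3% of the 12257 genes with an annotated ORF. Downstream ORFs were listed on 13 members (29.5%) against 9.72% of genes, and internal ones on 4 (9.09% against 3.10%). The list depends on how many footprints a gene has, and members were not matched on that, so these shares are descriptions. Eif4g2 carried 6 such ORFs, 3 of them upstream, and Eif4g1 carried 4. Eif1ad had 3 upstream ORFs of 29, 73 and 48 codons, and Eif5 had 2, of 108 and 97 codons, the second listed as overlapping the coding ORF. Each ORF is typed by the authors on its own transcript: 21 of the 24 upstream ORFs began before the longest coding ORF, and those of Eif2b4 and Eif4a2 and 1 of the 2 of Eif4e2 did not. Of the 2 genes that fell in footprints over RNA, Eif2b4 had 1 ORF of 54 codons (chromosome 5, 31350159 to 31350320, minus strand, GRCm39) that the authors typed as upstream on another transcript but that lies within the span of the longest coding ORF, and Eif6 had none listed. In eIF3, 10 of the 13 subunits had no ORF listed besides the coding one.

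**Figure D5:**
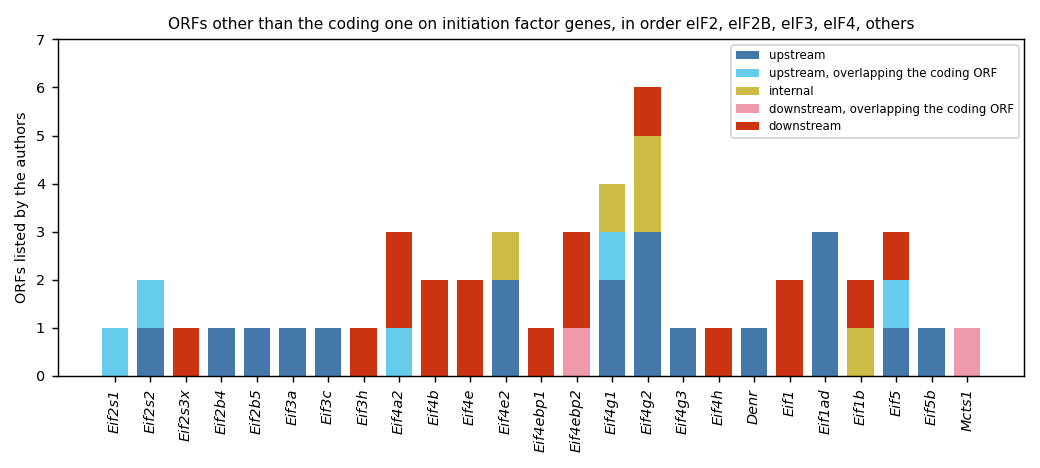
Number of ORFs other than the annotated coding ORF in the authors' list, by type, for the 25 initiation factor genes that carry any. Eif4g2 has 6 and Eif4g1 has 4; upstream types occur on 15 genes and downstream types on 13.

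For 14 of these ORFs, on 12 member genes, the authors deposited counts of P-sites, the ribosome position within each footprint, by reading frame, and sorted each ORF as larger in KO (7, of 1383 over all genes) or in SCR (7, of 1614). In the authors' deposited lists the upstream ORF of Eif3c, which starts with GTG (12 codons, chromosome 7, 126165523 to 126165561, minus strand, GRCm39), had 243 of 252 P-sites in its own frame (96.4%). That of Denr (20 codons, ATG) had 82 of 90 (91.1%), per the authors' deposited lists. Both are under larger in SCR. The 108-codon upstream ORF of Eif5 and the CTG-started one of Eif3a, also under larger in SCR, were unlike them, with 771 of 3634 P-sites (21.2%) and 88 of 406 (21.7%) in frame in the authors' deposited lists. In Eif5 2553 P-sites lay in the next frame, so most of the P-sites counted over this ORF lay outside its frame. Under larger in KO were upstream ORFs of Eif4e2 and Eif1ad, downstream ORFs of Eif4e, Eif4a2, Eif1b and Eif2s3x, and an internal ORF of Eif1b. The lists give no value per library, so no test was made.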

How the data were processed

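Input RNA and footprint tables hold expected counts per gene, deposited by the authors as whole numbers without normalization; STAR 2.7.10a, StringTie 2.1.7 and GRCm39 are named, with no role or order, per the submitters' processing notes. A further table from the authors, on translational efficiency, has for each genotype a footprint to RNA ratio, and per gene the log2 change, the p-value, its adjusted form and a dispersion score (left unused). Its tool and the ORF caller are not stated in what was used here. The authors' ORF lists hold, per the file headers, counts of P-sites per frame, an RPKM and adjusted p-values.

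Tests ran in edgeR 4.0.16 (R 4.3.3): TMM scaling, filterByExpr, quasi-likelihood F test, Benjamini-Hochberg adjustment over all genes, threshold 0.05. Translational efficiency was the interaction of genotype and assay over 8 libraries. Printed CPM are TMM-scaled. The SE is the log2 change over the square root of F. Code was tested on simulated data. Alternatives were DESeq2 1.42.0, its size factors within edgeR, no filter, each library left out in turn, a replicate block and, added later, library totals alone. Footprint density was planned on protein length; codons of the authors' longest annotated ORF were used instead. Paralog reads could be split between copies.

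Members and lists were chosen with earlier results of these data known. Full values are given for Mettl5, for up to 4 members per complex and comparison past the threshold by smallest p, or otherwise up to 2, and for the paralog sets; regulators were limited to 4 per comparison. Other genes were named after their values were seen.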

Additional observations from a re-analysis of the deposited data

How the results depend on the processing

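No member, and none of the few other genes followed through the alternatives, changed sign past the threshold in any run. Summaries did turn: with library totals alone the member median of footprints over RNA went from -0.12 to 0.10. Most calls over all genes in that comparison then went from lower to higher. With 2 libraries per group, calls rested on single libraries: leaving out each in turn gave 4 to 24 members higher in RNA (18 with all libraries), 578 to 2516 genes higher and 453 to 1735 lower; 7 to 31 genes higher and 18 to 97 lower in footprints, with no member; and, for footprints over RNA, 0 to 8 members lower, 0 to 166 genes higher, 0 to 1021 lower and a member median of -0.22 to -0.10. In these fits the lone library of a group is assumed to vary like the others. Without a filter on low counts, 6 members higher, 649 genes higher and 544 lower were called in RNA, 673 genes lower in footprints (member median 0.0422), and 80 higher in footprints over RNA (member median -0.22). DESeq2's size factors within edgeR, and TMM within each assay, kept every count and median in range. DESeq2 called 195 genes higher and 1012 lower in footprints, and 381 higher, 1341 lower and 9 members lower in footprints over RNA. Library totals alone, and TMM within each assay, were chosen after seeing the data, as was leaving out a library from the densities. Totals alone gave 11 members higher and 2240 genes lower in RNA (member median 0.11), 439 genes and 2 members higher in footprints (0.22), and 1011 genes higher, 305 lower and 1 member lower in footprints over RNA (0.10). The eIF3 density span was 8.16-fold without length correction. The causes of these changes were not tested. Replicate numbers did not pair the libraries: deviations from the group means of same-numbered SCR and KO libraries correlated at 0.00160 (9695 genes, RNA) and 0.0327 (8837, footprints). With a replicate block, 0 genes higher and 0 lower remained in footprints and 60 higher, 303 lower and 0 members in footprints over RNA; 19 members were called in RNA. Of members called in no setting, the sign differed in some setting for 9 of 19 in RNA, 14 of 42 in footprints and 30 of 33 in footprints over RNA.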

Other observations

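Of the list of 5 genes with initiation factor names outside the 44 members, 4 were tested in RNA. Their log2 changes ran from -0.03 to 0.27 with a median of 0.09. Those of the members ran from -0.10 to 0.48 with a median of 0.18. In footprints Eif5a2 (-0.36) lay below the lowest member (-0.28). Eif4a3, a helicase of the exon junction complex rather than of initiation, rose in RNA from 146 and 152 CPM in SCR to 186 and 172 in KO (0.27, SE 0.06, edgeR adjusted p = 0.0223); without SCR library 1 or 2 the adjusted p was 0.1505 or 0.07199. Eif5a, which relieves stalled elongation, had 595 and 623 CPM in SCR RNA and 688 and 664 in KO (0.15, SE 0.05, edgeR adjusted p = 0.073). Its paralog Eif5a2 overlapped at 28.9 and 28.98 against 27.3 and 29.4 CPM, and had 5.75 and 5.60 footprint CPM in SCR and 4.08 and 4.71 in KO (-0.36, SE 0.13, edgeR adjusted p = 0.181). Eif3j2, the copy of Eif3j1, had 23.0 and 23.2 CPM in SCR RNA and 22.7 and 24.3 in KO.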
